A study of Mus musculus with 8 samples.

Results

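The genes described here are the nuclear genes for subunits of the 5 complexes of oxidative phosphorylation in the mouse uterus, followed over the estrous cycle. They were chosen by symbol from the deposited count table as protein-coding genes whose names begin with Nduf (subunit letters a, b, c, s and v, without the assembly factors), Uqcr, Cox4 to Cox8 or Atp5, together with Sdha, Sdhb, Sdhc and Sdhd. This gave 85 of the 52308 genes of the table: 38 of complex I, 4 of complex II, 8 of complex III, 18 of complex IV and 17 of complex V. The tissue was whole uterus of female ICR mice, an outbred stock, aged 6-8 weeks. Animals were staged from the cells seen on stained vaginal smears, and none received a treatment or carried an allele that the labels name. Stranded mRNA libraries were made for proestrus, estrus, metestrus and diestrus, with 2 libraries for each stage.

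The mitochondrial respiratory chain passes electrons to oxygen and pumps protons across the inner membrane. Complex I takes electrons from NADH and complex II from succinate, complex III hands them to cytochrome c, complex IV reduces oxygen, and complex V, the ATP synthase, uses the proton gradient to make ATP. Most subunits are encoded in the nucleus and a few, among them the catalytic core of complex IV, in mitochondrial DNA. The uterus grows and regresses with each cycle under estrogen and progesterone, and the estrogen-related receptor and its coactivators are known regulators of these genes in other tissues.

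Total counts lay between 17863546 and 21896786 per library. Levels are given in CPM, counts per 1000000 of the TMM-normalised library size, for library 1 and then library 2 of a stage. Changes are log2 fold changes ± SE from edgeR's quasi-likelihood fit to all 8 libraries, and each adjusted p is adjusted over the 18114 genes tested, with 0.05 as the threshold. Nothing in the labels says whether the libraries of a stage are from different animals. The p-values therefore rest on the spread between these samples alone, and that spread may be technical. Whole tissue was measured, so fewer cells of a type and less RNA per cell cannot be told apart. Summed smooth muscle markers (8 of 8 detected) ranged from 6870 to 11051 CPM in 7 libraries and reached 17626 CPM in diestrus library 1, which also held 7718 CPM of gland markers against 6.0 to 60.1 CPM in the other libraries. Counts of the genes called in diestrus are therefore given with and without each of its libraries.

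Stretches near the start of transcription are shown first for the 3 paralogous genes of the ATP synthase c subunit and for Ndufa11 and Sdhd, whose levels are described further on. They were chosen after their values were seen. Each line runs 5′ to 3′ on the gene's own strand and ends at or before the start of transcription that RefSeq gives on GRCm38.p6. It holds the 110 bases up to that start, except for Atp5g1 (100 bases) and Atp5g2 (30 bases), where GENCODE places the start of the gene farther upstream. Capitals mark 1 match to a searched motif.
Atp5g1: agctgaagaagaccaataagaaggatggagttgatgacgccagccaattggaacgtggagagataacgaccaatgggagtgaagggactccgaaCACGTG
Atp5g2: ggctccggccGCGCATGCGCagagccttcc
Atp5g3: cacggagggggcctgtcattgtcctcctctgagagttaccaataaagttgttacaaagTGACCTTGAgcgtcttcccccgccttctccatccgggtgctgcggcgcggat
Ndufa11: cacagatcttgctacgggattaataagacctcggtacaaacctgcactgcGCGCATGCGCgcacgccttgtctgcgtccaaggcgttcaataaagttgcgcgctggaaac
Sdhd: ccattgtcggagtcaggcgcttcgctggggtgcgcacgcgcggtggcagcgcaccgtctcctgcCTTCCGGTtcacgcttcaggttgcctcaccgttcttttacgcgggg
The Atp5g1 stretch is chr11:96075670-96075769 on the minus strand, and its capitals are an E-box, CACGTG, the motif that Myc and related factors bind. The last base of the E-box is also the first base of the GENCODE gene. The Atp5g2 stretch (chr15:102671070-102671099, minus strand) lies wholly inside the GENCODE gene and holds the motif of nuclear respiratory factor 1, GCGCA followed by its reverse complement. The Atp5g3 stretch (chr2:73911327-73911436, minus strand) holds the estrogen-related receptor motif TCAAGGTCA read from the opposite strand. The Ndufa11 stretch (chr17:56717652-56717761, plus strand) holds the motif of nuclear respiratory factor 1, and the Sdhd stretch (chr9:50603850-50603959, minus strand) the GABPA motif ACCGGAAG on the opposite strand. GABPA is also called nuclear respiratory factor 2.

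Promoter windows of 300 bases, 250 before the start and 50 after it, were found for 69 of the 85 genes, in 74 windows, and were searched on both strands for exact letters. The motif of nuclear respiratory factor 1 occurred in 6.76% of these windows, against 1.33% of the 21262 windows of all genes. ACCGGAAG occurred in 8.11% against 3.01%, AAGATGGC, the YY1 motif, in 13.5% against 3.05%, and the THAP11 motif, ACTACA and TCCC with any 2 bases between them, in 10.8% against 2.54%. The estrogen-related receptor motif TCAAGGTCA was in 2 of the 74 windows, or 2.7%, against 0.334% of all windows. The full estrogen response element, GGTCA and TGACC with any 3 bases between them, was in 0 of 74 windows and in 0.0517% of all windows. CACGTG occurred in 9.46% against 7.84%, and GGGCGGGG, an SP1 motif, in 17.6% against 23.6%. These shares describe letters in a window only, and windows of 1 gene can overlap.

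Across the cycle the nuclear subunit genes were at their highest in proestrus. Summed over the 85 genes, the level was 11116 and 11094 CPM in proestrus, 8019 and 8379 CPM in estrus, 8712 and 8539 CPM in metestrus, and 8321 and 8530 CPM in diestrus. Both proestrus libraries lay above the 6 others, both metestrus libraries lay next and only just above the higher diestrus library, and estrus and diestrus overlapped. Of the 85 genes, 82 had enough counts to be tested and 49 of these changed across the stages, against 39.1% of all genes tested. Of the 49, 41 had their highest mean in proestrus, or 83.7%, whereas 23.9% of all genes that changed across the stages did. The lowest mean was in estrus for 26 of the 49, in metestrus for 12, in diestrus for 11 and in proestrus for 0. The count of 49 became 13 or 9 on leaving out proestrus library 1 or 2, 15 or 18 for estrus library 1 or 2, 14 or 12 for metestrus library 1 or 2, and 54 or 57 for diestrus library 1 or 2. With library totals alone as the scaling it was 28.

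**Figure D1:**
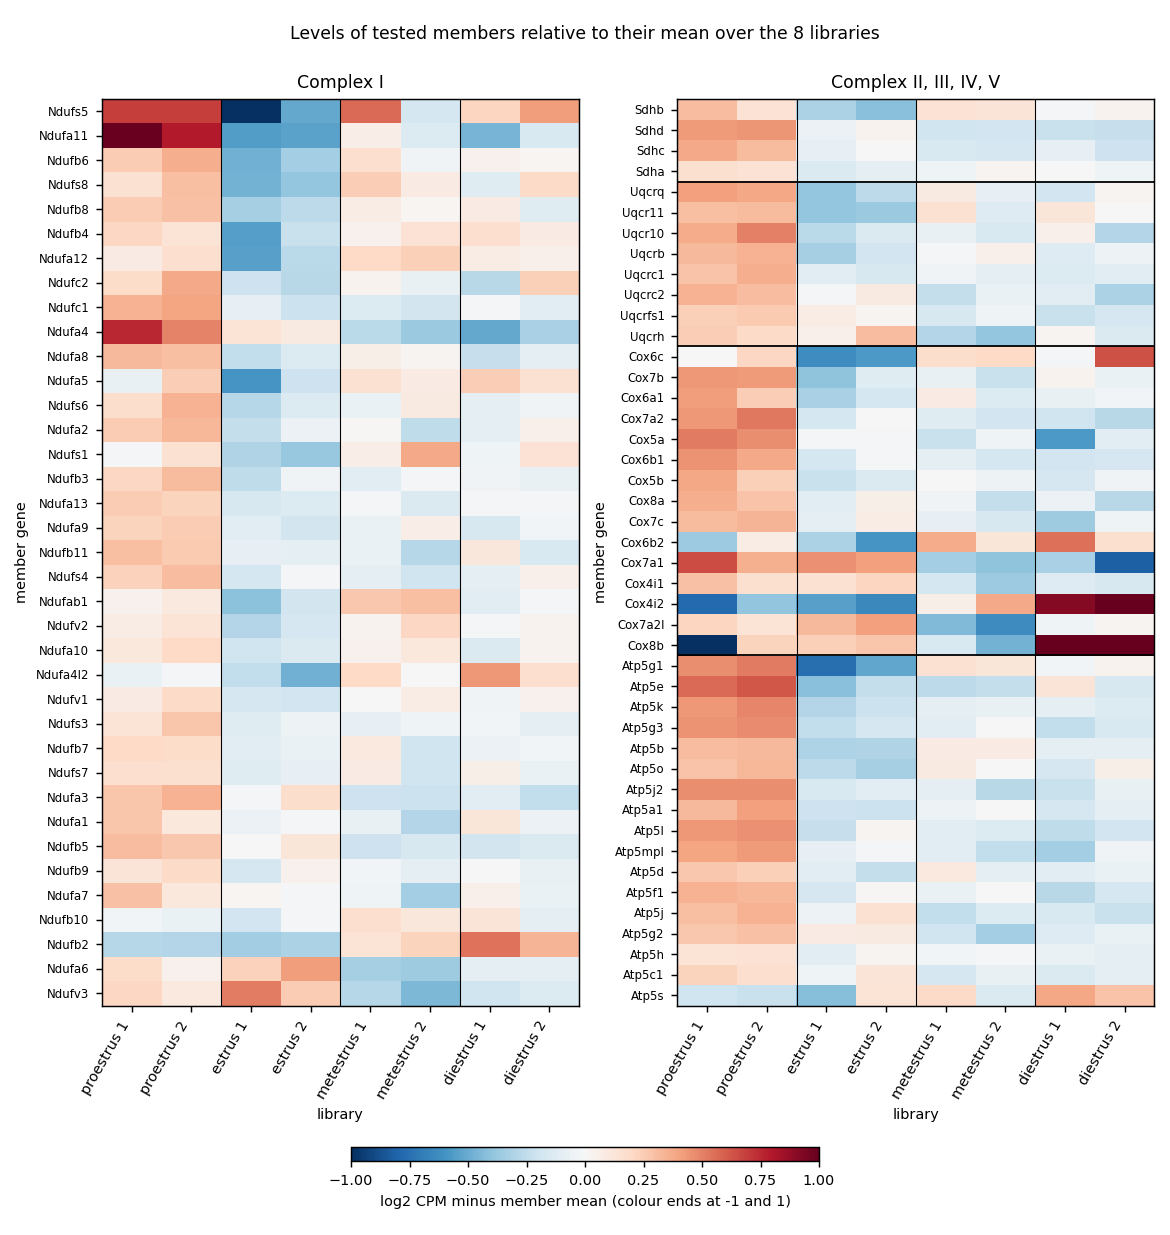
Heat map of 81 of the tested genes (rows, by complex) in the 8 libraries (columns), as log2 CPM minus the gene's mean over the libraries, with the colour scale ending at -1 and 1. Most rows are red in both proestrus libraries and blue in estrus, while Cox4i2, Cox8b and Ndufb2 are reddest in diestrus and Ndufv3, Ndufa6 and Cox7a2l in estrus.

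All 8 tested genes of complex III changed across the stages, as did 13 of 17 of complex V, 3 of 4 of complex II, 10 of 15 of complex IV and 15 of 38 of complex I. In complex I that is 39.5%, near the 39.1% of all genes tested, and whether the complexes differ was not tested. Relative to each gene's mean over the 8 libraries, the median complex V gene stood at 0.33 and 0.35 (log2) at proestrus and at -0.21 and -0.10 at estrus, -0.10 and -0.08 at metestrus, and -0.14 and -0.10 at diestrus. The median complex I gene stood at 0.21 and 0.25 at proestrus, -0.19 and -0.14 at estrus, 0.02 and -0.06 at metestrus, and -0.04 and -0.03 at diestrus. The summed level of complex V was 155% and 159% of complex I at proestrus, 140% and 141% at estrus, 149% and 155% at metestrus, and 144% and 143% at diestrus. The proestrus and estrus libraries did not overlap in this ratio.

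**Figure D2:**
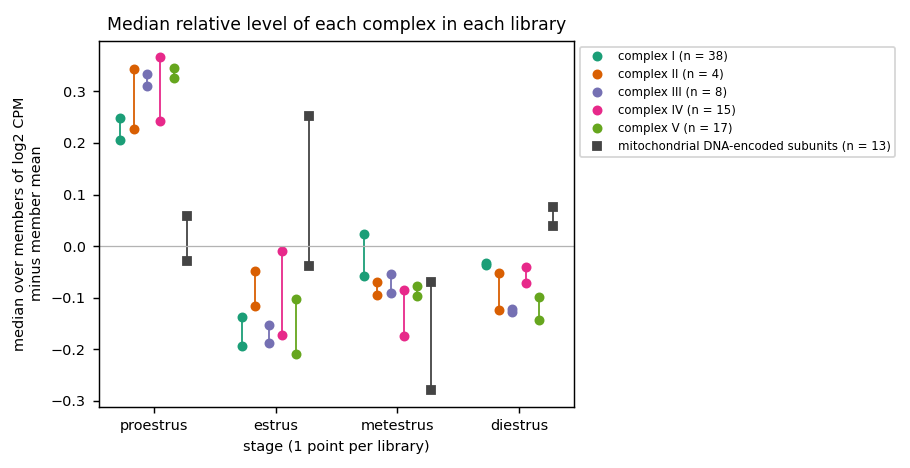
Median over the tested genes of each complex (circles) and over the mitochondrial DNA-encoded subunits (squares) of log2 CPM minus the gene's mean, 1 point per library, with a line joining the libraries of a stage. The circles lie between 0.21 and 0.37 in proestrus and between -0.21 and 0.02 in the other stages, whereas the squares span -0.03 to 0.06 in proestrus and -0.04 to 0.25 in estrus.

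Per kilobase of merged exons, the genes with the highest mean level over the libraries were Cox8a (345 CPM per kb) and Cox6a1 (323 CPM per kb), small subunits of complex IV, and Atp5a1 (267 CPM per kb) and Atp5b (246 CPM per kb), the alpha and beta subunits of the catalytic head of the ATP synthase. Cox6b1 (194 CPM per kb) and Cox4i1 (186 CPM per kb) followed. In complex I the highest were Ndufa4 (129 CPM per kb), Ndufa2 (102 CPM per kb) and Ndufb11 (96.7 CPM per kb), in complex II Sdhd (102 CPM per kb), Sdha (67.7 CPM per kb) and Sdhb (52.2 CPM per kb), and in complex III Uqcr11 (129.6 CPM per kb), Uqcrh (128 CPM per kb) and Uqcr10 (106 CPM per kb). The order depended on the length used: per kilobase of the principal transcript, a choice made after the data were seen, Atp5b led with 544 CPM per kb, before Cox6a1 with 397, Cox8a with 388 and Cox4i1 with 376 CPM per kb.

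Estrus against proestrus showed the widest change. Of the 82 tested genes, 35 were lower in estrus and 0 higher, against 6.94% of all genes tested lower and 8.12% higher. For 77 of the 82 the log2 fold change was negative, and its median was -0.41, against 0.01 for all genes. Both estrus libraries lay below both proestrus libraries for 71 of the 82 genes, against 33.3% of all genes tested, and above them for 4, against 34.2%. None was higher by DESeq2 or at an unadjusted p under 0.05 in the edgeR fit either, and DESeq2 called 41 lower. The lower calls numbered 4 or 2 on leaving out proestrus library 1 or 2, 2 or 3 for estrus library 1 or 2, 15 for either metestrus library and 48 for either diestrus library, while those over all genes tested moved between 154 and 2371. With library totals alone 20 were lower, against 942 over all genes tested. The median moved little in these fits, between -0.45 and -0.40 without 1 library.

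In complex V, 11 of 17 genes fell in estrus, with a median of -0.54. Atp5g1, 1 of 3 genes for the c subunit that forms the rotor ring in the membrane (ENSMUSG00000006057, chr11:96068852-96075670), had 61.7 and 72.6 CPM in estrus, against 144 and 149 CPM in proestrus. It fell by 1.12 ± 0.11 (adjusted p = 0.00393), and the libraries of the stages did not overlap. Atp5e, the epsilon subunit of the central stalk (ENSMUSG00000016252, chr2:174461072-174464105), had 78.5 and 89.3 CPM in estrus, against 156 and 162 CPM in proestrus, a log2 fold change of -0.92 ± 0.13 (adjusted p = 0.00939). Its fall did not pass without proestrus library 2 or either estrus library (adjusted p at most 0.0677, without estrus library 1), whereas that of Atp5g1 passed without any 1 library (at most 0.0355). Atp5b had 831 and 835 CPM in estrus, against 1276 and 1292 CPM in proestrus (-0.63 ± 0.11, adjusted p = 0.016; 0.100 without estrus library 1). Atp5k, the small membrane subunit e, averaged 28.4 ± 1.13 CPM in estrus and 46.7 ± 1.31 CPM in proestrus (SD, n = 2 each) and fell by 0.72 ± 0.10 (adjusted p = 0.00905). That call was lost in 3 of the 8 fits without a library (at most 0.0736, without estrus library 1). Atp5a1 (-0.58 ± 0.11), Atp5g3 (-0.67 ± 0.10), Atp5j2 (-0.59 ± 0.11), Atp5o, which joins the head to the outer stalk (-0.60 ± 0.12), Atp5l (-0.54 ± 0.11), Atp5d (-0.43 ± 0.11) and Atp5f1 (-0.42 ± 0.11) also fell, with adjusted p between 0.0115 and 0.0475, and each of these calls was lost in 4 or 6 of the 8 fits without a library. Atp5c1, the gamma subunit of the stalk (-0.15 ± 0.11, adjusted p = 0.368), Atp5h, of the outer stalk (-0.18 ± 0.10, adjusted p = 0.245), and Atp5g2 (-0.19 ± 0.10, adjusted p = 0.22) did not pass.

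In complex I, 11 of 38 genes fell in estrus, with a median of -0.37. Ndufa11, an accessory subunit of the membrane arm (ENSMUSG00000002379, chr17:56717767-56722141), had 99.3 and 86.8 CPM in proestrus, 34.0 and 34.6 CPM in estrus, 52.5 and 45.5 CPM in metestrus, and 36.2 and 45.0 CPM in diestrus. Proestrus stood alone above the other stages, and estrus lay below all other libraries. In estrus it fell to 36.8% of its proestrus mean, a log2 fold change of -1.44 ± 0.15 (adjusted p = 0.00422; at most 0.0416 without 1 library). Ndufs5, a small accessory subunit on the side of the intermembrane space, had 6.55 and 17.0 CPM in estrus, against 39.1 and 39.2 CPM in proestrus (-1.74 ± 0.44, adjusted p = 0.0448). Its estrus libraries were further apart than those of any other tested member in that stage, its metestrus libraries held 35.9 and 21.5 CPM, and the call did not pass in 5 of the 8 fits without a library (at most 0.155, without proestrus library 2), nor across the stages (adjusted p = 0.0728). Ndufs8, a core iron-sulfur subunit, had 45.4 and 48.4 CPM in estrus, against 70.1 and 77.9 CPM in proestrus (-0.66 ± 0.14, adjusted p = 0.0266; 0.161 without estrus library 1). Ndufa12, Ndufa13, Ndufa8, Ndufb6, Ndufb8, Ndufc1 and Ndufs6, all accessory subunits, fell by 0.39 to 0.71, and Ndufa4 by 0.51, and each of these calls was lost in 4 or 6 of the 8 fits without a library. Reads can be shared where genes overlap: 39.0% of the exon bases of Ndufb6 also lie in Smim27 on the opposite strand, 30.0% of those of Ndufa13 in Tssk6 and 6.41% of those of Ndufa11 in Vmac. Of the core subunits, Ndufs1, Ndufs3, Ndufs7, Ndufv1 and Ndufv2 did not pass and had log2 fold changes between -0.41 and -0.26 with adjusted p between 0.0746 and 0.184.

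In complexes II and III the same stages differed for most genes. Sdhd, a membrane anchor of succinate dehydrogenase, had 119 and 127 CPM in estrus, against 166 and 168 CPM in proestrus (-0.45 ± 0.09, adjusted p = 0.0253; 0.153 without estrus library 1). Sdhb, the iron-sulfur subunit, had 92.7 and 86.3 CPM in estrus, against 143 and 127 CPM in proestrus (-0.59 ± 0.10, adjusted p = 0.0165; 0.103 without estrus library 2), and Sdhc, the other anchor, fell by 0.39 ± 0.10 (adjusted p = 0.0432; 0.203 without estrus library 1). Sdha, the flavoprotein that oxidises succinate, had 252 and 261 CPM in estrus, against 311 and 308 CPM in proestrus. Its libraries did not overlap but the difference did not pass (-0.27 ± 0.10, adjusted p = 0.105). In complex III 5 of 8 genes fell: Uqcrq (-0.72 ± 0.12, adjusted p = 0.0151), Uqcr11 (-0.69 ± 0.12), Uqcr10 (-0.65 ± 0.14) and Uqcrb (-0.60 ± 0.10), all small accessory subunits, and Uqcrc1, a core protein (-0.46 ± 0.10, adjusted p = 0.0258). Uqcrq had 59.3 and 64.8 CPM in estrus, against 103 and 102 CPM in proestrus, and its call was lost on leaving out any 1 library of either stage (adjusted p at most 0.111). The other 4 calls were lost in 4 or 6 of the 8 fits without a library. Uqcrfs1, the Rieske iron-sulfur protein, Uqcrc2, the second core protein, and Uqcrh, the hinge protein beside cytochrome c1, did not pass (adjusted p = 0.193, 0.141 and 0.885).

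In complex IV 5 of 15 genes fell in estrus. Cox7b averaged 84.8 ± 11.5 CPM in estrus and 136.5 ± 1.01 CPM in proestrus (-0.69 ± 0.13, adjusted p = 0.0191), and Cox6a1 averaged 188 ± 13.5 CPM in estrus and 282 ± 24.1 CPM in proestrus (-0.58 ± 0.13, adjusted p = 0.0296). Cox7a2 (-0.57 ± 0.11), Cox6b1 (-0.51 ± 0.10) and Cox5b (-0.49 ± 0.11) also fell, with adjusted p between 0.0191 and 0.0286. All 5 are small nuclear subunits around the catalytic core. Each of these calls was lost on leaving out any 1 library of either stage (adjusted p at most 0.166). Cox4i1, the main form of the largest nuclear subunit, had 316 and 329.7 CPM in estrus, against 349 and 318 CPM in proestrus, with overlapping libraries (-0.05 ± 0.12, adjusted p = 0.804).

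Metestrus against estrus split the genes. Of the 82, 13 were higher in metestrus, against 16.7% of all genes tested, and 7 lower, against 19.5%. Both shares (of 82) were near or under those of all genes, and the median log2 fold change was 0.08, against -0.05. Both metestrus libraries lay above both estrus libraries for 38 of the 82, against 36.3% of all genes tested, and below them for 22, against 40.2%. Of the 13, 8 belonged to complex I, which holds 38 of the 82. That is 21.1% of complex I, against 16.7% of all genes tested. Ndufa12, an accessory subunit of the peripheral arm, had 80.1 and 82.0 CPM in metestrus, against 47.7 and 57.8 CPM in estrus (0.62 ± 0.12, adjusted p = 0.00953; 0.0587 without metestrus library 2). Ndufab1, the mitochondrial acyl carrier protein, averaged 47.2 ± 0.803 CPM in metestrus and 31.6 ± 3.54 CPM in estrus (0.58 ± 0.12, adjusted p = 0.0115; 0.0724 without estrus library 1). Ndufs1, a core iron-sulfur subunit, had 97.6 and 121 CPM in metestrus, against 75.4 and 71.4 CPM in estrus (0.58 ± 0.14, adjusted p = 0.0218; 0.110 without metestrus library 2). Ndufs8 (0.60 ± 0.14), Ndufa11 (0.52 ± 0.15), Ndufb6 (0.48 ± 0.13), Ndufv2, another core iron-sulfur subunit (0.35 ± 0.11), and Ndufb8 (0.34 ± 0.11) rose too. Outside complex I, Atp5g1 had 115 and 113 CPM in metestrus, against 61.7 and 72.6 CPM in estrus (0.76 ± 0.11, adjusted p = 0.00433; at most 0.0352 without 1 library). Cox6c, a small subunit of complex IV, had 185 and 189 CPM in metestrus, against 107 and 110.2 CPM in estrus (0.79 ± 0.21, adjusted p = 0.0278; 0.127 without estrus library 1), and Sdhb (0.50 ± 0.10), Uqcr11 (0.40 ± 0.12) and Atp5b (0.39 ± 0.11) completed the 13.

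Of the 7 genes called lower in metestrus than in estrus, Ndufa4 alone had also been called lower in estrus than in proestrus. Cox7a2l, a factor that links complexes III and IV in supercomplexes (ENSMUSG00000024248, chr17:83501918-83517330), had 154 and 145 CPM in proestrus, 165 and 176 CPM in estrus, 97.2 and 85.5 CPM in metestrus, and 128 and 135 CPM in diestrus. It was highest in estrus and lowest in metestrus, and no stage overlapped another. In metestrus it fell by 0.90 ± 0.11 against estrus (adjusted p = 0.00288; at most 0.0349 without 1 library). Ndufv3, an accessory subunit of the NADH-binding module, had 58.6 and 52.4 CPM in metestrus, against 102 and 85.2 CPM in estrus (-0.75 ± 0.13, adjusted p = 0.00648; 0.0629 without metestrus library 2). Ndufa6, an accessory subunit that binds the acyl carrier protein, had 65.4 and 64.1 CPM in metestrus, against 96.2 and 109.5 CPM in estrus (-0.67 ± 0.11, adjusted p = 0.006; 0.0609 without metestrus library 2). Uqcrh had 127 and 119 CPM in metestrus, against 161 and 194 CPM in estrus (-0.53 ± 0.13, adjusted p = 0.0206; 0.149 without metestrus library 2). Cox4i1 (-0.45 ± 0.12), Ndufa4 (-0.44 ± 0.13) and Atp5g2 (-0.36 ± 0.10) fell as well. On leaving out estrus library 1, 1 gene was higher and 3 were lower, and for estrus library 2 the counts were 4 and 3. They were 2 and 2 for metestrus library 1, 2 and 1 for metestrus library 2, 10 and 4 for proestrus library 1, 10 and 3 for proestrus library 2, and 24 and 7 for either diestrus library. Calls over all genes tested also fell in number without a proestrus, estrus or metestrus library and rose without a diestrus library. With library totals alone the counts were 25 and 3, against 3864 and 2804 over all genes tested.

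**Figure D3:**
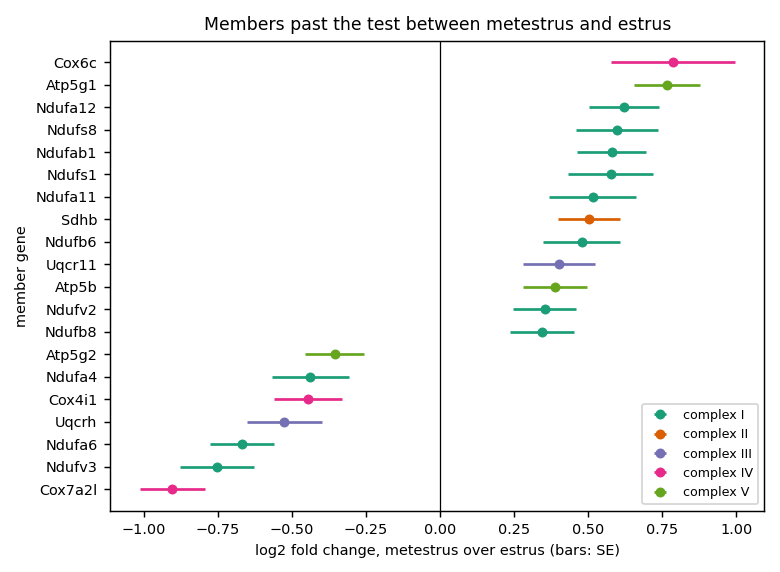
Log2 fold change of metestrus over estrus for the 20 genes past the test, with SE as bars and colours by complex. Cox6c and Atp5g1 lie farthest to the right (0.79 and 0.76) and Cox7a2l farthest to the left (-0.90).

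Diestrus against metestrus gave 0 higher and 0 lower of the 82 genes in edgeR, against 0.282% and 0.226% of all genes tested. At an unadjusted p under 0.05, 2 were higher and 1 lower, and DESeq2 called 1 higher, Cox7a2l (0.51, adjusted p = 0.0143 in DESeq2 and 0.110 in edgeR). The counts in edgeR were 0 without any 1 library as well. The median log2 fold change was -0.01, against 0.02 for all genes. Both diestrus libraries lay above both metestrus libraries for 15 of the 82, against 24.2% of all genes tested, and below them for 20, against 24.8%.

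Proestrus against diestrus, the step that closes the cycle, had 33 genes higher in proestrus, against 12.0% of all genes tested, and 2 lower, against 10.4%. The median was 0.33, against -0.01 for all genes. Both proestrus libraries lay above both diestrus libraries for 68 of the 82, against 30.0% of all genes tested, and below them for 6, against 30.7%. The higher calls were 12 of 17 in complex V, 6 of 8 in complex III, 7 of 15 in complex IV, 2 of 4 in complex II and 6 of 38 in complex I. Ndufa4, long counted as a subunit of complex I and now assigned to complex IV (ENSMUSG00000029632, chr6:11900292-11907497), had 287 and 239 CPM in proestrus, 187 and 181 CPM in estrus, 141 and 131 CPM in metestrus, and 119 and 135 CPM in diestrus. It fell stage by stage until metestrus and overlapped between metestrus and diestrus. Proestrus stood 1.05 ± 0.13 above diestrus (adjusted p = 0.0038; at most 0.0287 without 1 library). Ndufa11 was 1.20 ± 0.15 higher in proestrus (adjusted p = 0.00369), Cox5a 0.81 ± 0.16 (adjusted p = 0.0163), Cox7a2 0.72 ± 0.11 (adjusted p = 0.00592) and Atp5l 0.67 ± 0.11 (adjusted p = 0.00991). Sdhd had 166 and 168 CPM in proestrus, against 106 and 105 CPM in diestrus (0.66 ± 0.09, adjusted p = 0.00507), and Atp5g3 had 253 and 258 CPM in proestrus, against 156 and 167 CPM in diestrus (0.66 ± 0.10, adjusted p = 0.00708). The calls of Ndufa11, Cox7a2, Sdhd and Atp5g3 passed without any 1 library, but with only the 4 libraries of these stages in the fit Sdhd (adjusted p = 0.0540) and Atp5g3 (adjusted p = 0.0610) did not pass. Those of Cox5a and Atp5l did not pass without either proestrus library (at most 0.0967 and 0.0675).

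The genes lower in proestrus than in diestrus were Cox4i2, the alternative form of subunit 4 (-1.53 ± 0.27, adjusted p = 0.0107; 0.0792 without proestrus library 1), and Ndufb2, a membrane-arm accessory subunit (-0.73 ± 0.18, adjusted p = 0.0304; 0.142 without proestrus library 1). Ndufb2 had 6.46 and 6.45 CPM in proestrus, against 11.5 and 9.99 CPM in diestrus, on 123 to 255 counts per library. Without diestrus library 1, 24 genes were higher and 2 lower, and without diestrus library 2, 32 and 2. The higher calls numbered 5 or 6 on leaving out proestrus library 1 or 2, 22 or 24 for estrus library 1 or 2, and 16 or 17 for metestrus library 1 or 2. Calls over all genes tested also fell in number in these fits without a proestrus, estrus or metestrus library. With library totals alone the higher calls were 5, against 1551 over all genes tested, and the median of all genes was -0.21 in this pair. When the 4 libraries of these stages alone were fitted, the higher calls were 3, against 756 over all genes tested.

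Metestrus against proestrus repeated the position of proestrus, with the same proestrus libraries: 29 genes were lower in metestrus, against 10.3% of all genes tested, and 0 higher, against 6.68%, with a median of -0.36. Both metestrus libraries lay below both proestrus libraries for 66 of the 82, against 34.6% of all genes tested, and above them for 8, against 35.0%. DESeq2 also called 0 higher and 33 lower, and at an unadjusted p under 0.05 2 were higher. The largest falls were those of Ndufa4 (-0.95 ± 0.13, adjusted p = 0.0077), Ndufa11 (-0.93 ± 0.15, adjusted p = 0.0108), Atp5e (-0.84 ± 0.13, adjusted p = 0.0101), Cox7a2l (-0.71 ± 0.11, adjusted p = 0.01), Atp5j2, subunit f of the ATP synthase membrane part (-0.65 ± 0.11, adjusted p = 0.0129), and Cox7a2 (-0.64 ± 0.11, adjusted p = 0.0123), and each of these calls was lost in 3 or 4 of the 8 fits without a library (at most 0.129, without metestrus library 2). The lower calls numbered 0 or 3 on leaving out proestrus library 1 or 2, 0 for either metestrus library, 16 or 19 for estrus library 1 or 2, and 36 or 35 for diestrus library 1 or 2. Calls over all genes tested also fell in number without a proestrus, estrus or metestrus library. With library totals alone 5 were lower and 1 was higher, against 1297 and 2223 over all genes tested.

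Estrus against diestrus gave 4 genes higher in estrus, against 13.9% of all genes tested, and 10 lower, against 9.97%. Both estrus libraries lay above both diestrus libraries for 19 of the 82, against 32.0% of all genes tested, and below them for 37, against 30.4%. The higher ones were Ndufv3 (0.56 ± 0.12), Ndufa4 (0.53 ± 0.13), Ndufa6 (0.42 ± 0.11) and Cox7a2l (0.38 ± 0.11), and the lower ones Cox4i2 (-1.56 ± 0.27), Cox6c (-0.94 ± 0.21), Ndufb2 (-0.77 ± 0.18), Ndufa4l2 (-0.67 ± 0.18), Atp5g1 (-0.63 ± 0.11), Ndufa5, a peripheral-arm accessory subunit (-0.59 ± 0.17), Ndufs8, Ndufa12, Uqcr11 and Sdhb. Cox6c had 107 and 110.2 CPM in estrus, against 162 and 255 CPM in diestrus, the widest gap between diestrus libraries of any tested member. On leaving out diestrus library 1, 0 were higher and 6 lower, and for diestrus library 2 the counts were 3 and 9. They were 0 and 0 for estrus library 1, 1 and 3 for estrus library 2 or either metestrus library, 1 and 7 for proestrus library 1, and 2 and 4 for proestrus library 2. Calls over all genes tested also fell in number without a proestrus, estrus or metestrus library. The counts were 0 and 16 with library totals alone, against 1992 and 2584 over all genes tested. They were 0 and 1 when the 4 libraries of these stages alone were fitted, against 1362 and 577.

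Several subunits are encoded by paralogous genes, and their ratios were compared between the stages. Atp5g1, Atp5g2 and Atp5g3 encode the same mature c subunit behind different targeting sequences. Atp5g1 stood at 87.9% and 89.8% of Atp5g2 in counts at proestrus, 43.0% and 50.2% at estrus, 97.6% and 106% at metestrus, and 82.1% and 82.4% at diestrus. No stage overlapped another, and estrus lay farthest away. Atp5g2 itself had 163 and 166 CPM in proestrus, 144 and 145 CPM in estrus, 118 and 107 CPM in metestrus, and 124 and 129 CPM in diestrus. Atp5g3 had 253 and 258, 157 and 165, 171 and 186, and 156 and 167 CPM in the same order of stages. Atp5g2 was 64.6% and 64.3% of Atp5g3 at proestrus and 91.7% and 87.5% at estrus. The log2 ratios were compared across the stages with an exact permutation test over all 2520 arrangements of the libraries, a test added after the data were seen, for 7 ratios. The p for Atp5g1 to Atp5g2 was 0.00952, the smallest that this test can give (adjusted p = 0.0333 over the 7). For Atp5g1 to Atp5g3 and Atp5g2 to Atp5g3 the exact p was 0.0286 (adjusted p = 0.0333). After adjustment none of the ratios that passed did so without proestrus library 1, estrus library 1 or diestrus library 1. For Atp5g1 to Atp5g2 this came from the adjustment over the 7 ratios. Its exact p stayed the smallest that the test can give without any 1 library. The ratios of Atp5g1 and Atp5g2 to Atp5g3 did not pass without proestrus library 2 or diestrus library 2 either.

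Cox7a2l was 168% and 149% of its paralog Cox7a2 at proestrus, 275% and 261% at estrus, 156% and 144% at metestrus, and 217% and 240% at diestrus (exact permutation p = 0.019, adjusted p = 0.0333; adjusted p at most 0.08, without diestrus library 1). Estrus lay highest and diestrus next, and proestrus and metestrus overlapped. Cox4i2 had 1.74 and 2.28 CPM in proestrus, 2.05 and 1.91 CPM in estrus, 3.12 and 3.89 CPM in metestrus, and 5.67 and 6.00 CPM in diestrus, on 34 to 126 counts. It was 0.499% and 0.718% of Cox4i1 at proestrus, 0.65% and 0.579% at estrus, 1.24% and 1.76% at metestrus, and 2.18% and 2.35% at diestrus (exact permutation p = 0.0286, adjusted p = 0.0333; adjusted p = 0.08 without diestrus library 1, 0.0571 without diestrus library 2 and 0.0556 without metestrus library 1). Proestrus and estrus overlapped and lay below the other stages. Cox4i2 is known to respond to low oxygen and to be abundant in lung.

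Ndufa4l2, a paralog of Ndufa4 known to be induced by low oxygen, had 11.5 and 11.9 CPM in proestrus, 10.2 and 8.62 CPM in estrus, 13.8 and 12.1 CPM in metestrus, and 16.2 and 13.6 CPM in diestrus, and did not pass across the stages (adjusted p = 0.087). As a share of Ndufa4, which fell over the same stages, it was 4.02% and 4.98% at proestrus, 5.43% and 4.76% at estrus, 9.84% and 9.23% at metestrus, and 13.7% and 10.0% at diestrus (exact permutation p = 0.0286, adjusted p = 0.0333; adjusted p = 0.08 without diestrus library 1, and 0.0556 and 0.0667 without metestrus library 1 and 2). The proestrus and estrus libraries lay below those of metestrus and diestrus. Cox6b2, known from testis, was 2.88% to 4.60% of Cox6b1 in proestrus and estrus and 6.19% to 8.46% in metestrus and diestrus, a ratio that did not pass (exact permutation p = 0.0571). Of the forms known from heart and skeletal muscle, Cox7a1 (0.353 to 0.974 CPM) and Cox8b (0.0513 to 0.756 CPM) were tested and did not pass across the stages (adjusted p = 0.107 and 0.176), and Cox6a2, with 2 to 8 counts per library, was not tested. Cox7b2 and Cox8c, known from testis, had at most 1 count in a library and were not tested.

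**Figure D4:**
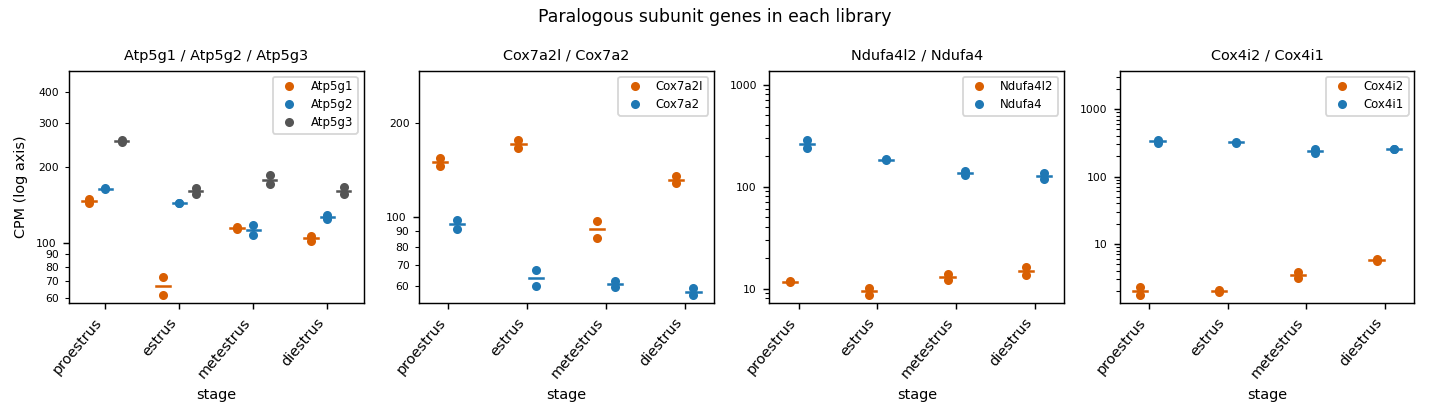
CPM (log axis) of paralogous subunit genes in each library (points) with the stage mean (line), by stage. Atp5g1 is lowest in estrus (61.7 and 72.6 CPM), Cox7a2l in metestrus and Ndufa4 in metestrus and diestrus, and Cox4i2 is highest in diestrus.

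Of the 82 tested genes, 33 did not pass across the stages, with adjusted p between 0.0531 and 0.345, and 23 of them belonged to complex I. Complex I holds 38 of the 82, and the 39.5% of it that passed is near the 39.1% of all genes tested. The genes whose stage means differed least were Ndufb9, Ndufb10 and Ndufs7 in complex I, Sdha in complex II and Atp5h, Atp5c1 and Atp5d in complex V. Ndufb10, of the membrane arm, had 60.6 and 58.9 CPM in proestrus, 54.2 and 60.9 CPM in estrus, 69.5 and 66.8 CPM in metestrus, and 67.5 and 57.6 CPM in diestrus (adjusted p = 0.345 across the stages). Ndufb9, also of the membrane arm, and Ndufs7, a core iron-sulfur subunit, had stage means of 28.9 to 33.7 CPM and 49.2 to 59.0 CPM (adjusted p = 0.344 and 0.306). Atp5h had stage means of 119.7 to 139.6 CPM (adjusted p = 0.262). In complexes III and IV every gene with the smallest range of means except Cox8a (adjusted p = 0.0613) still passed across the stages: Uqcrfs1, Uqcrc1, Uqcrc2, Cox5b and Cox4i1, with adjusted p between 0.0229 and 0.0348. Atp5s, an assembly factor despite its symbol, had 3.45 to 6.07 CPM and did not pass (adjusted p = 0.345).

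The 13 subunit genes of mitochondrial DNA did not share the proestrus peak. They summed to 22477 and 22695 CPM in proestrus, 23809 and 24610 CPM in estrus, 20090 and 20444 CPM in metestrus, and 22343 and 22323 CPM in diestrus. The nuclear sum was 49.5% and 48.9% of the mitochondrial sum at proestrus, 33.7% and 34.0% at estrus, 43.4% and 41.8% at metestrus, and 37.2% and 38.2% at diestrus, and no stage overlapped another. In estrus against proestrus 0 of the 13 were called by edgeR or DESeq2, and 0 had an unadjusted p under 0.05, with a median log2 fold change of 0.13, and in metestrus against estrus 4 fell, against 19.5% of all genes tested. These were mt-Co1, a catalytic subunit of complex IV (7478 and 7271 CPM in metestrus, against 11509 and 11234 CPM in estrus; -0.62 ± 0.14, adjusted p = 0.0172), mt-Co2 (-0.45 ± 0.14), mt-Co3 (-0.56 ± 0.14) and mt-Atp6, the proton channel subunit of complex V (-0.70 ± 0.15, adjusted p = 0.0125). Without estrus library 2 or either metestrus library 0 of these calls passed (adjusted p at most 0.238). The mRNA was selected by poly(A), and mitochondrial genes have near-identical nuclear copies, so these levels are uncertain.

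**Figure D5:**
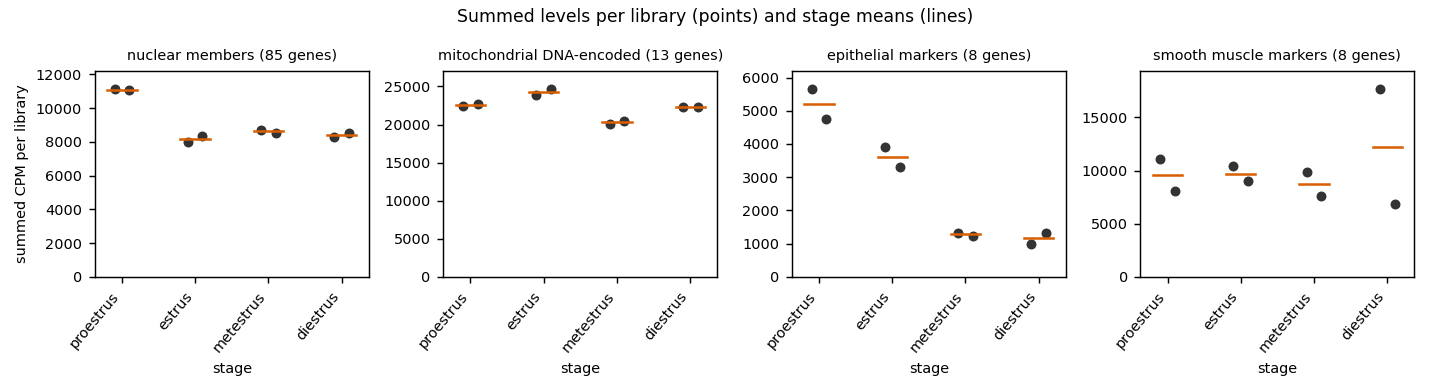
Summed CPM per library (points) and stage means (lines) of the 85 nuclear genes, the 13 mitochondrial DNA-encoded genes, 8 epithelial markers and 8 smooth muscle markers. The nuclear sum is highest in proestrus (11116 and 11094 CPM), the mitochondrial sum in estrus, the epithelial sum in proestrus, and smooth muscle in diestrus library 1.

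Other mitochondrial lists were described with the same fit. Of the enzymes of the tricarboxylic acid cycle and pyruvate dehydrogenase, 8 of 18 tested genes were lower in estrus than in proestrus and 0 higher, with a median of -0.41, against 6.94% of all genes tested lower and 8.12% higher. Mdh2, malate dehydrogenase, had 227 and 247 CPM in estrus, against 406 and 419 CPM in proestrus (-0.80 ± 0.13, adjusted p = 0.0131), and Idh3a, of isocitrate dehydrogenase, averaged 58.1 ± 11.6 CPM in estrus and 98.4 ± 9.1 CPM in proestrus (-0.76 ± 0.18, adjusted p = 0.0344). Of 23 electron carriers and partners 4 were lower and 1 higher. Cyc1, cytochrome c1 of complex III, whose symbol lies outside the pattern, had 113 and 114 CPM in estrus, against 180.3 and 185 CPM in proestrus (-0.68 ± 0.10, adjusted p = 0.0115), and Cycs, cytochrome c itself, had 33.7 and 40.9 CPM in estrus, against 66.8 and 72.0 CPM in proestrus (-0.89 ± 0.14, adjusted p = 0.0135). Of 77 mitochondrial ribosome genes 15 were lower in estrus than in proestrus, of 22 import genes 5 and of 47 assembly factors 3, with 0 higher in each list. The 3 assembly factors are 6.38%, near the share of all genes. On leaving out any 1 library of proestrus or estrus these lists had at most 1 lower call each, and without either diestrus library 12, 8, 26, 9 and 7. Mrps28, a protein of the small ribosomal subunit, averaged 11.4 ± 0.361 CPM in estrus and 22.5 ± 3.05 CPM in proestrus (-0.99 ± 0.15, adjusted p = 0.0121). The calls of Mdh2, Idh3a, Cyc1, Cycs and Mrps28 were each lost in 3 to 6 of the 8 fits without a library (adjusted p at most 0.171, for Idh3a without estrus library 1).

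Against estrus, 16.7% of all genes tested were higher in metestrus and 19.5% lower. In metestrus 31 of 77 mitochondrial ribosome genes were higher and 2 lower (median 0.34), 10 of 22 import genes were higher and 0 lower (0.48), and 11 of 47 assembly factors were higher and 1 lower (0.19), beside 13 and 7 of the 82 subunits (0.08), of which the 13 are near the share of all genes. The higher calls numbered as few as 4 of the ribosome genes (without estrus library 1), 1 of the import genes (without estrus library 1) and 1 of the assembly factors (without metestrus library 2). Metestrus was called lower than proestrus for 2 of the 77 ribosome genes and 1 of the 22 import genes, beside 29 of the 82 subunits and 10.3% of all genes tested. Whether the lists differ was not tested. Ecsit, an assembly factor of complex I, averaged 29.2 ± 0.572 CPM in metestrus and 12.9 ± 0.862 CPM in estrus (1.18 ± 0.12, adjusted p = 0.00195), and Ndufaf4, another, averaged 30.8 ± 6.12 CPM in metestrus and 12.5 ± 2.43 CPM in estrus (1.30 ± 0.22, adjusted p = 0.00704; 0.0504 without metestrus library 2).

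Of 16 tested regulators of mitochondrial genes, 1 (6.25%) was called higher in estrus than in proestrus and 3 (18.8%) lower, against 8.12% and 6.94% of all genes tested. The higher one was Ppargc1a, the gene of PGC-1 alpha (1.77, adjusted p = 0.0115). Ppargc1a was also called higher in metestrus than in proestrus (1.11, adjusted p = 0.0357). Its level in proestrus was called lower than in diestrus (-0.998, adjusted p = 0.0401). In that order the calls were lost in 3, 4 and 6 of the 8 fits without a library. Pprc1, a coactivator of the PGC-1 family, had 83.5 and 90.6 CPM in proestrus and 49.1 and 62.8 CPM in estrus. Pprc1 had 163 and 154 CPM in metestrus and 93.7 and 94.5 CPM in diestrus. It was 1.50 ± 0.14 higher in metestrus than in estrus (adjusted p = 0.00163), so that its peak was in metestrus. Esrra, the estrogen-related receptor alpha, had 68.2 and 53.0 CPM in proestrus, 55.2 and 52.2 CPM in estrus, 24.8 and 24.6 CPM in metestrus, and 23.3 and 27.3 CPM in diestrus. Its proestrus and estrus libraries overlapped and lay above those of the other stages (proestrus over diestrus 1.26 ± 0.15, adjusted p = 0.00361), and the difference was 1.13 without diestrus library 1 and 1.38 without diestrus library 2 (adjusted p = 0.00657 and 0.00361). Myc, a growth-promoting transcription factor (1.30 ± 0.17, adjusted p = 0.00342), and Hif1a, the oxygen-sensing factor (0.94 ± 0.14, adjusted p = 0.00461), were higher in metestrus than in estrus, and Hif1a was lower in estrus than in proestrus (-1.17 ± 0.14, adjusted p = 0.0062; 0.0541 without estrus library 2). Of the 16 regulators, 5 were called higher in metestrus than in estrus and 1 lower, against 16.7% and 19.5% of all genes tested. Myc was also called lower in estrus than in proestrus (-0.71, adjusted p = 0.0376). Its level was called lower in proestrus and in estrus than in diestrus (-1.01 and -1.73, adjusted p = 0.00933 and 0.00233). Without diestrus library 1 these differences were -1.24 and -1.97, and without diestrus library 2 they were -0.76 and -1.49. Among 16 glycolysis genes, 10 were called higher in proestrus than in diestrus, against 12.0% of all genes tested, while 1, Ldhb, was called lower. Without diestrus library 1 or 2 the higher calls were 8 or 9, without proestrus library 1 they were 3, and in a fit of the 4 libraries of these stages alone they were 3. Ldha, lactate dehydrogenase A, averaged 1202 ± 173 CPM in proestrus and 381 ± 89.9 CPM in diestrus (1.66 ± 0.20, adjusted p = 0.00362), and the difference was 1.42 without diestrus library 1 and 1.93 without diestrus library 2 (adjusted p = 0.00322 and 0.00131).

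Cell type markers moved with the stages as well. The 8 epithelial markers, all detected, summed to 5643 and 4762 CPM in proestrus, 3910 and 3322 CPM in estrus, 1314 and 1246 CPM in metestrus, and 995 and 1327 CPM in diestrus. This sum was lower in estrus than in proestrus, as were the subunit genes, and lower again in metestrus, where the subunit sum was not. The 5 macrophage markers summed to 895 and 974 CPM in estrus, against 268 to 417 CPM in the other libraries. The 6 stroma markers ranged from 2657 to 4438 CPM and the 5 endothelial markers from 359 to 713 CPM. The 6 skeletal muscle markers summed to 309 and 195 CPM in proestrus and to 117 and 136 CPM in estrus. In metestrus they summed to 250 and 272 CPM, and in diestrus to 274 and 232 CPM. The 3 erythroid markers ranged from 48.9 to 118 CPM and the 2 markers of oviduct or ciliated cells from 1.91 to 6.35 CPM. The 4 adipocyte markers summed to at most 9.5 CPM, the 2 brown adipocyte markers to at most 2.4 CPM and the 4 ovary markers to at most 15.2 CPM. The part of these cell types in the results was not tested.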

How the data were processed

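RNA-seq counts per gene from 8 uterus libraries were used. They are whole-number raw counts as deposited by the authors. The submitters' processing notes name STAR, featureCounts of Subread and the GRCm38 (mm10) genome, with no versions. The strand setting is not given in the sources used here. Of 52308 gene IDs, 52058 matched GENCODE M21, and the others held at most 0.0107% of a library. Chromosome positions are those of GENCODE M21 on GRCm38. Stages and library numbers come from the labels.

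Genes were kept by edgeR's filterByExpr over the stages (18114 tested, 34194 not), scaled by TMM and fitted with edgeR 4.0.16 (R 4.3.3, limma 3.58.1) by quasi-likelihood with stage as the factor, which left 4 residual degrees of freedom. P-values were adjusted by Benjamini-Hochberg over the genes tested. DESeq2 1.42.0, other scalings and filters, and leaving out each library were alternatives. The fit was checked on simulated counts. Depth was 17863546 to 21896786 counts per library, and counting error is small for the genes named except those of a few CPM. Genes named with values are, by rule, all paralogs of an isoform group, up to 6 called genes of largest rise and of largest fall per pair of stages, the 6 of smallest p across the stages, the 3 highest per length and up to 3 of smallest range in each complex, and up to 4 per other list; further genes complete a count or a complex and were chosen after their values were seen. The members and lists were chosen with earlier results of these data known. Ratios between paralogs used 0.5 added counts. Of the 85 genes, 30 share exon bases with another gene, and 12 processed pseudogenes are named after a member. The values of 1 gene of complex I, which is part of the counts and medians, are not reported here.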

Additional observations from a re-analysis of the deposited data

How the results depend on the processing

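The calls depended on single libraries and also on the scaling, the filter and the fit. The diestrus libraries were the furthest apart: 2713 tested genes differed more than 2-fold between them, against 837 to 1448 in the other stages. All stages shared 1 estimate of the spread, so this gap entered every test of the fit to all 8 libraries. Library totals alone lost 23 calls across the stages and 75 between pairs. Of 182 calls of a member (49 across the stages and the others between pairs), 12 held under every alternative, 64 under every one but leaving out a library, and 0 turned direction. Under library totals alone 28 members changed across the stages. The counts were then 20 lower in estrus than in proestrus, 25 higher and 3 lower in metestrus than in estrus, 5 higher in proestrus than in diestrus, 0 higher and 16 lower in estrus than in diestrus, and 1 higher and 5 lower in metestrus than in proestrus. The medians over the members were -0.37, 0.24, 0.13, -0.25 and -0.15 for these pairs. Under this scaling the median of all genes was -0.21 in proestrus over diestrus and 0.21 in metestrus over proestrus. With no filter 4 were lower in metestrus than in estrus, 1 was lower in proestrus than in diestrus, and 2 were higher and 4 lower in estrus than in diestrus. With only the pair in the fit 3 were higher and 0 lower in proestrus than in diestrus, and 0 higher and 1 lower in estrus than in diestrus. DESeq2 called 1 higher in diestrus than in metestrus. Relative to all genes, the complex III median of estrus over diestrus was -0.065 with DESeq2 and -0.0614 with no filter, the complex IV median of estrus over proestrus -0.49 with a filter at 1 CPM in 2 libraries, and the complex V median of metestrus over proestrus -0.46 with Ndufa4 and Ndufa4l2 moved to complex IV and Atp5s left out.

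Without 1 library at a time the members called ranged from 9 to 57 across the stages, from 2 to 48 lower in estrus than in proestrus, from 1 to 24 higher and 1 to 7 lower in metestrus than in estrus, from 5 to 32 higher and 0 to 2 lower in proestrus than in diestrus, from 0 to 3 higher and 0 to 9 lower in estrus than in diestrus, and from 0 to 36 lower in metestrus than in proestrus. The member medians ranged from -0.45 to -0.40 (estrus over proestrus), 0.0629 to 0.16 (metestrus over estrus), -0.0605 to -0.00686 (diestrus over metestrus), 0.31 to 0.38 (proestrus over diestrus), -0.13 to -0.0681 (estrus over diestrus) and -0.37 to -0.29 (metestrus over proestrus). Minus the median of all genes they ranged from -0.44 to -0.39, 0.0606 to 0.19, 0.32 to 0.38, -0.12 to -0.0268 and -0.39 to -0.31 for the same pairs without diestrus over metestrus. On that scale complex I ranged from -0.41 to -0.33 (estrus over proestrus), 0.18 to 0.25 (metestrus over estrus), -0.17 to -0.0546 (estrus over diestrus) and -0.31 to -0.23 (metestrus over proestrus). Complex II ranged from 0.33 to 0.46 (proestrus over diestrus) and -0.0444 to 0.0689 (estrus over diestrus). Complex III ranged from -0.59 to -0.50, 0.0929 to 0.19, -0.091 to -0.0265, 0.40 to 0.49, -0.0697 to -0.00138 and -0.43 to -0.37 for the 6 pairs in the order above. Complex IV ranged from -0.45 to -0.36 (estrus over proestrus), -0.12 to 0.054 (diestrus over metestrus) and 0.00604 to 0.20 (estrus over diestrus). Complex V ranged from -0.59 to -0.49 (estrus over proestrus), -0.0157 to 0.17 (metestrus over estrus), 0.45 to 0.56 (proestrus over diestrus), -0.0839 to 0.0648 (estrus over diestrus) and -0.45 to -0.37 (metestrus over proestrus). A fit without 1 library leaves its stage with 1 library, which is assumed to vary like the others.

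Libraries with the same number did not deviate together in every pair of stages (correlations from -0.0926 to 0.145), so the numbers were not taken to pair them. With the replicate block, 49 members changed across the stages, and 35 were lower in estrus than in proestrus, 12 higher and 7 lower in metestrus than in estrus, 32 higher and 2 lower in proestrus than in diestrus, 3 higher and 9 lower in estrus than in diestrus, and 30 lower in metestrus than in proestrus. Ndufs5 then did not pass in estrus (adjusted p = 0.0568), nor under library totals alone (0.0512) or with only the pair in the fit (0.0549).

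Outliers were not tested, since each stage has 2 libraries. Of the tested genes, counts limit Cox8b, Cox7a1, Cox4i2, Atp5s, Cox6b2 and Ndufb2 most, and Cox6a2, Cox7b2 and Cox8c were below what the filter keeps.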
